A study of Mus musculus with 5 samples.

Results

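The genes described here are 8 enzymes of cholesterol synthesis, Hmgcs1, Idi1, Fdps, Fdft1, Sqle, Lss, Cyp51 and Dhcr7, among 12393 genes that the array's annotation names. They were taken as a named list, and each was represented by the probe set with the highest mean intensity among those that the platform annotation maps to that gene alone. Whole mouse lung was profiled on 5 arrays, 1 for each condition, each with pooled RNA. SM22-tet-BMPR2delx4+ mice carry a mutant BMPR2, a receptor for bone morphogenetic proteins, in a dominant-negative form that doxycycline switches on in smooth muscle through the SM22 promoter. The induced pool (8 weeks, with doxycycline) had right ventricular pressures of 50 ± 8 mmHg, and the pool of the same genotype without doxycycline 30 ± 3 mmHg. The SM22-rtTA pool, mice with the doxycycline-dependent activator alone, was also given doxycycline and had 30 ± 3 mmHg. FVB/N mice aged 8 weeks were either wild type, at 30 ± 3 mmHg, or kept in hypoxia for 4 weeks, at 50 ± 8 mmHg. The kind of error after each pressure, the number of animals in a pool and the meaning of 8 weeks for the transgenic pools (age or treatment) are not stated in the labels. The transgenic and the FVB/N groups differ in genotype, and some pools also differ in doxycycline or hypoxia. The sample titles name a strain for the wild-type and hypoxic pools alone.

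Cells build cholesterol from acetyl-CoA through mevalonate, isoprenoid diphosphates, squalene and lanosterol. The genes of this pathway share control by the transcription factor SREBP-2, which is released to the nucleus when membrane sterol is low and binds sterol regulatory elements, usually beside sites for NF-Y or Sp1. In lung, alveolar type 2 cells need cholesterol for surfactant. Liver, adrenal gland and skin are known for high synthesis.

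RefSeq promoter sequences (build GRCm38.p6) were present for 5 of the 8 genes, and the 250 bases before the start site are printed for 3 of them. Hmgcs1 and Cyp51 are shown because they differed most between pools once values below background are set aside, and Idi1, another early enzyme, because its level varied less. Capitals mark a spelling of the sterol regulatory element, TCACNCCAC, and the NF-Y box CCAAT on either strand (the latter reads ATTGG on the opposite strand).
Hmgcs1, chr13:119690101-119690350, plus strand: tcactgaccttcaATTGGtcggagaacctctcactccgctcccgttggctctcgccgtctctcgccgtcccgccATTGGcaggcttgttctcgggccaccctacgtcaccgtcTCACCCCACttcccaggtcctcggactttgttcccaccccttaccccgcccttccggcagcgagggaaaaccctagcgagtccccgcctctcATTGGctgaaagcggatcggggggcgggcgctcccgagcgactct
Cyp51, chr5:4104698-4104947, minus strand: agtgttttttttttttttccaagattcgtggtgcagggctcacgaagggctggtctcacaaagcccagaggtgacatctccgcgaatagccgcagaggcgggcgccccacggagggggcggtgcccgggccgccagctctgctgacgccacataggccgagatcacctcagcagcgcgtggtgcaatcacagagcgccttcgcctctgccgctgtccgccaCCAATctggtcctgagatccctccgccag
Idi1, chr13:8885356-8885605, plus strand: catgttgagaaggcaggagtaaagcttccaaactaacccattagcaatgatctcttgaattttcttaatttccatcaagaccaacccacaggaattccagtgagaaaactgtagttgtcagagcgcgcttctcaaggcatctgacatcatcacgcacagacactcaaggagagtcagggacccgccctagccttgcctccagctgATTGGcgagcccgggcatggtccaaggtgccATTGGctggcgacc
The Hmgcs1 sequence held the element TCACCCCAC at bases -137 to -129 from the start site, and CCAAT boxes on the opposite strand at -237 to -233, -176 to -172 and -45 to -41. Idi1 had such boxes at -45 to -41 and -14 to -10, also on the opposite strand, and Cyp51 had 1 on the same strand at -29 to -25. Hmgcs1 was the 1 gene of 5 with a match to TCACNCCAC, a motif found in 1.22% of the 27025 genes with a promoter sequence. The shorter CACNCCAC, which lies within it, gave the same 1 of 5 (6.05% of genes). A CCAAT box stood before all 5 genes, Hmgcs1, Idi1, Lss, Cyp51 and Dhcr7, against 37.5% of genes. The Sp1 box GGGCGG also stood before all 5, against 35.4%, and the E box CACGTG before Dhcr7 alone, against 6.86%. Dhcr7 has 3 annotated starts and so more bases in which a motif can occur. These matches describe the letters in the window and show no binding. Other spellings of the sterol regulatory element were not searched, so a gene without a match may still hold one.

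Levels are scaled intensities, that is, deposited intensities multiplied so that all arrays shared a median over well-expressed probe sets. Values below a noise floor of 276, the median of all scaled values, cannot be told from background, and a ratio with such a value is given as a bound ("at least"). Of the 8 genes, 7 passed the floor in some pool and 4 in all pools. Over the whole array 8596 genes passed it in some pool and are called measured genes. With 1 array for each condition there is no replicate spread, so no test was made, and precision is limited by the number of arrays. The nearest measure of spread is the SD of the log2 ratio of SM22-rtTA over BMPR2delx4+ without doxycycline, 0.34 over the 5894 genes that passed the floor in every pool. That pair also differs in genotype and doxycycline. In bulk RNA, fewer cells of a type and less RNA per cell cannot be told apart.

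Marker genes of other tissues differed between the arrays. The alveolar type 2 markers, 8 or 9 of 9 above the floor in every pool, summed to 44162 in the induced pool and 53024 to 58272 in the others. Macrophage markers summed to 8335 in the induced pool and 11480 to 14327 in the others. Most of that sum was Lyz2 (5464 in the induced pool, 8034 to 8721 in the others). Csf1r was not lower in the induced pool (2005 against 1641 to 2008). Endothelial markers, 8 of 8 above the floor everywhere, summed to 20337 in wild type, 21386 in the induced pool and 26537 to 30625 in the others. The summed intensity of 9 kidney tubule markers was 57014 in wild type and 6403 to 9684 in the other pools. Most of the sum in those other pools was Aqp1, which hardly differed (5297 to 7193 there, 7003 in wild type). Liver markers summed to 18038 in wild type against 1535 to 2786, and adrenal cortex markers to 11047 against 2539 to 3207. Fdx1, on the adrenal list, was a large part of the lower sums (1577 to 2301, with 3818 in wild type). Fat markers were at 11662 in wild type, 8545 in the induced pool and 2355 to 4040 in the others. Skeletal muscle markers were at 64918 in the induced pool, 17674 in hypoxia and 2464 to 5142 in the others, and squamous epithelial markers at 16818 and 24927 against 1437 to 1712. Bmpr2 itself was between 175 and 357, above the floor in SM22-rtTA alone. Its probe set checks nothing about the induction, since its position relative to the transgene is not known.

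**Figure D1:**
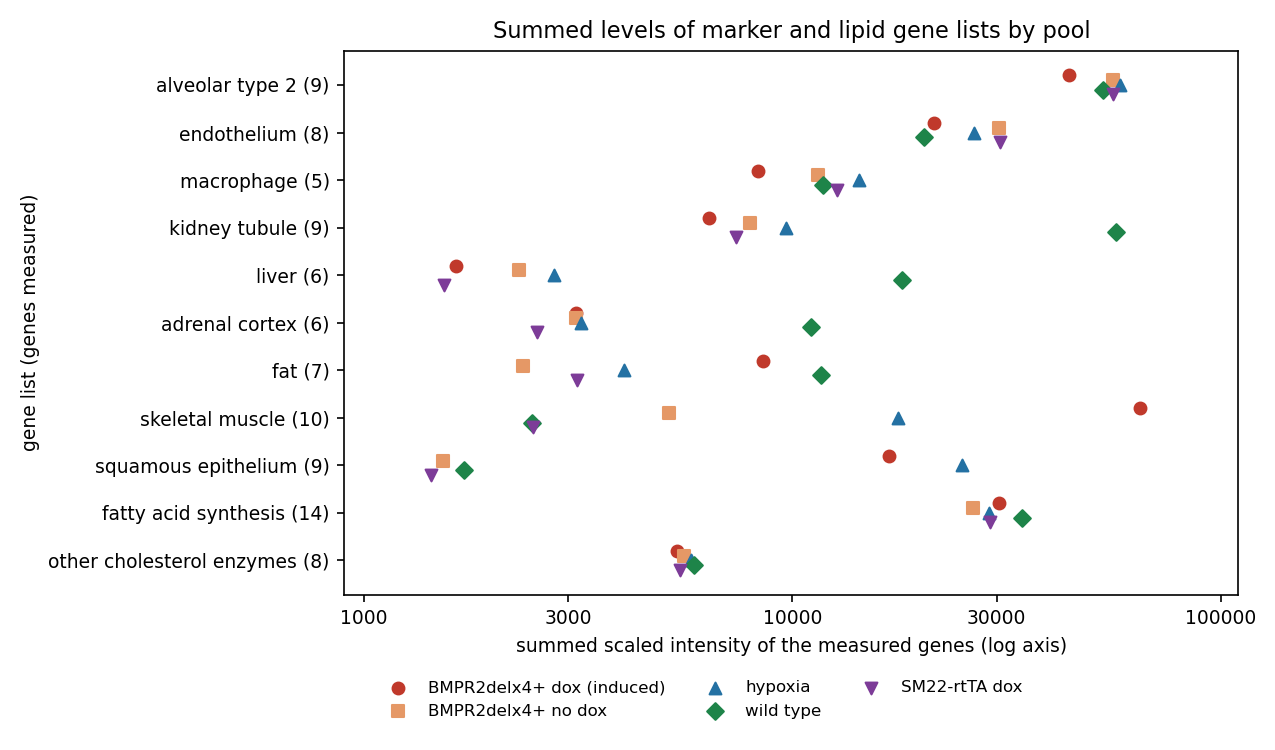
Summed scaled intensity (horizontal log axis) of the measured genes of 9 marker lists and 2 lipid gene lists (vertical axis, number of measured genes in parentheses) in each of the 5 pools, 1 symbol for each pool. The wild-type pool stands apart for kidney tubule, liver and adrenal cortex markers, and the induced and hypoxic pools for skeletal muscle and squamous markers. The other cholesterol enzymes lie between 5389 and 5893, a sum of genes that differ in direction. Among them, Lbr was lowest in wild type (1382 against 1769 to 2299 elsewhere). Nsdhl (1337 against 720 to 1141) and Ebp (1325 against 769 to 943) were highest there.

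The first of the 8 enzymes is Hmgcs1, cytosolic HMG-CoA synthase, which acts at the start of the mevalonate pathway. Hmgcs1 was at 3914 in wild type, 1606 in hypoxia, 1555 in the induced pool, 1183 in SM22-rtTA and 1177 in BMPR2delx4+ without doxycycline. Wild type thus stood 2.44-fold above the next pool, and the transgenic controls were nearly level with each other. All 4 Hmgcs1 probe sets were highest in wild type, at 3914, 3675, 2829 and 1880. They stood 3.32-fold, 3.41-fold, 3.75-fold and 3.44-fold above the mean of the 2 transgenic controls, so the probe sets gave nearly the same ratio. Idi1, which isomerises isopentenyl diphosphate, was at 873 in wild type, 743 in hypoxia, 639 in SM22-rtTA, 609 without doxycycline and 554 in the induced pool. Each of these values was within 0.34 (log2) of its neighbour. A dimmer Idi1 probe set had the same 2 pools on top, 345 in wild type and 307 in hypoxia, and was below the floor elsewhere (119 to 174).

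Fdps and Fdft1, which follow, had other orders. Fdps, farnesyl diphosphate synthase, was at 828 in SM22-rtTA, 797 in hypoxia, 583 without doxycycline, 520 in wild type and 494 in the induced pool. SM22-rtTA and hypoxia were on one side of a log2 gap of 0.45, and the other 3 pools on the other. Its second probe set was below the floor in all pools (82.1 to 197). Fdft1, squalene synthase, the first enzyme given over to sterols alone, was at 472 in the induced pool, 376 without doxycycline and 283 in hypoxia, while wild type (276) and SM22-rtTA (252) were just under the floor. Both BMPR2delx4+ pools were thus the highest for Fdft1. A second Fdft1 probe set gave the same pair on top, 434 and 349, and its other 2 probe sets were below the floor throughout (58.1 to 96.8).

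Of the sterol-forming enzymes, Sqle varied least and Cyp51 most. Sqle, squalene epoxidase, a rate-limiting step of sterol synthesis, was at 462 in SM22-rtTA, 453 in wild type, 408 without doxycycline, 405 in the induced pool and 352 in hypoxia. The highest was 1.31-fold above the lowest, and no neighbours were more than 0.34 (log2) apart. Lss, lanosterol synthase, was below the floor in all pools (176 to 248), so no order can be given for it. Cyp51, which removes a methyl group from lanosterol, was at 1172 in wild type and below the floor in the others, at 240 in SM22-rtTA, 202 in hypoxia, 193 without doxycycline and 176 in the induced pool. Wild type was at least 4.24-fold above each of them. Of its other 2 probe sets, both below the floor in all pools, 1 was also highest in wild type (196 against 47.7 to 52.9) and 1 was highest in hypoxia (96.6, with wild type at 85.6). Dhcr7, which reduces the last double bond on the way to cholesterol, was at 419 in wild type and below the floor elsewhere (121 to 219). Wild type was at least 1.52-fold above the others.

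**Figure D2:**
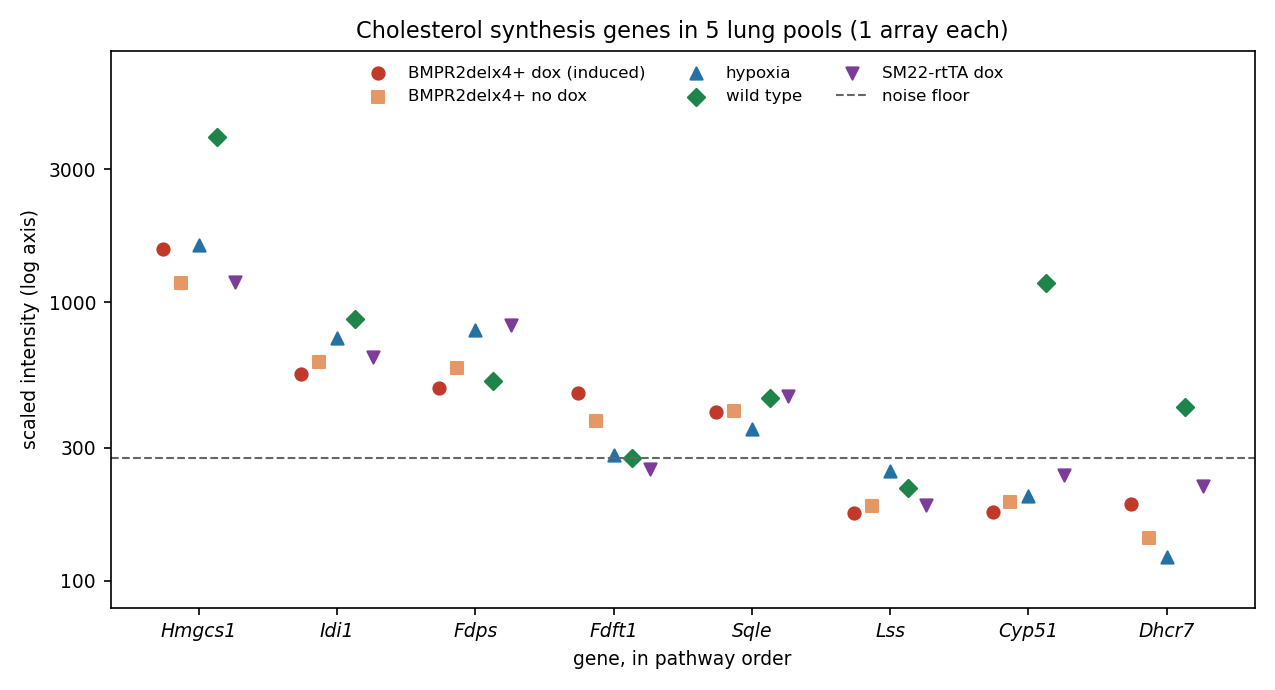
Scaled intensity (log axis) of the 8 genes in pathway order in the 5 pools, 1 symbol for each pool, with the noise floor of 276 as a dashed line. Hmgcs1, Cyp51 and Dhcr7 are highest in wild type by the widest gaps, whereas Fdps, Fdft1 and Sqle have other pools on top.

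The genes did not share 1 profile. Wild type was highest for 4 of the 7 members above the floor in some pool, Hmgcs1, Idi1, Cyp51 and Dhcr7, where 24.9% of the measured genes were highest in that pool. Cyp51 and Dhcr7 passed the floor in wild type alone, so they are among the 7 only through that pool. Idi1 led the next pool by 0.23 (log2), less than the spread of 0.34. Of 32 gaps between neighbouring pools in the order of each gene, with values below the floor raised to it, 6 were above the spread of 0.34. Of these, 3 set wild type above the next pool (Hmgcs1, Cyp51, Dhcr7). The 32 include gaps that are 0 by construction, because both pools were raised to the floor, and so could not pass 0.34. This holds for every gap of Lss, for those below wild type in Cyp51 and Dhcr7, and for the lowest of Fdft1. The spread of 0.34 itself came from genes above the floor in every pool, which these genes were not. The least alike pair was Fdps and Cyp51, with a root mean square difference of 1.01 between their centred log2 profiles over 5 pools. The most alike pair was Sqle and Lss, at 0.14, with Lss at the floor in every pool. Hmgcs1 and Cyp51 differed by 0.29, with Cyp51 set to the floor outside wild type. The genes with a profile most like the mean of the 8 were Fbxw5, Tlcd1, Lep, Slc30a2, Nat2, Lactb, Cth and Ptges2, at root mean square differences of 0.019 to 0.023 over the 5 pools. They were at 394 to 403 in wild type, and all but Fbxw5 were below the floor in every other pool. Their likeness thus rests on the wild-type value and on the floor, which sets the other pools equal.

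**Figure D3:**
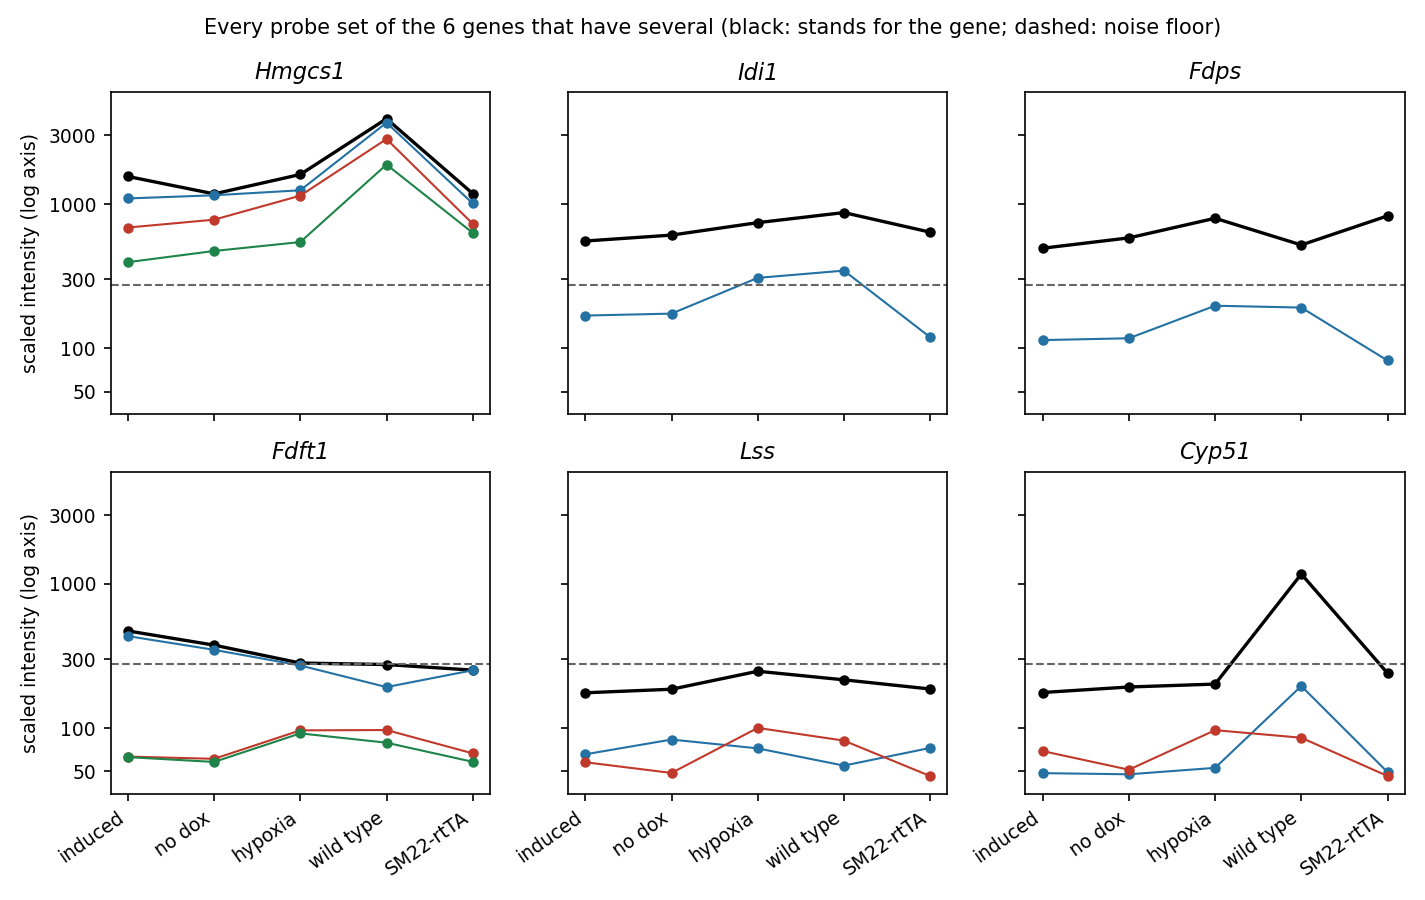
Scaled intensity (log axis) of every probe set of the 6 genes with more than 1, by pool; black lines mark the probe set that stands for the gene and the dashed line the noise floor, and lines join pools only to make a probe set easy to follow. The 4 Hmgcs1 probe sets peak together in wild type, while only 1 of the 3 Cyp51 probe sets is above the floor there.

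Wild type was compared with the mean of the 2 transgenic normal-pressure pools, since all 3 groups had pressures of 30 mmHg. A gene is called higher or lower at 1.5-fold or more. Called higher in wild type were 3 of the 8, Hmgcs1 (3.32-fold), Cyp51 (at least 4.24-fold) and Dhcr7 (at least 1.52-fold), where 16.9% of measured genes were. None of the 8 was called lower, where 10.3% were. The median log2 ratio of the 8 was 0.27, with genes below the floor on both sides at 0, against 0.00 for all measured genes. Idi1 had a log2 ratio of 0.49 and Fdps of -0.42. With values as deposited, without scaling, all genes above the floor in every pool shifted from a median of -0.05 to -0.25. The log2 ratios of Hmgcs1 and Cyp51 were then 1.51 and at least 1.96, Dhcr7 was at least 0.47 and not called, and Fdps was called lower at -0.64. Of all genes called, 62.2% were higher with scaling, 37.1% as deposited, 49.3% with quantile normalization and 42.7% with the median of all probe sets. The sign for Sqle (0.06) turned in all 3 of those alternatives, and the Fdps sign turned with the mean of its probe sets (0.19). Cyp51 rested on 1 probe set, since the mean log2 value of its 3 lay below the floor in every pool. Kidney, liver, adrenal and fat markers were highest in the same pool, as given above, and their part in these differences was not tested. The muscle and squamous markers of wild type were close to those of SM22-rtTA (2464 against 2480, and 1712 against 1437). Without doxycycline they summed to 5142 and 1526.

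Hypoxia was compared with wild type, the question being which genes accompany raised pressure without the transgene. Hmgcs1 was lower in hypoxia by 2.44-fold, Cyp51 by at least 4.24-fold and Dhcr7 by at least 1.52-fold, so 3 of the 8 were called lower, where 12.0% of measured genes were. The Dhcr7 call was lost in all 3 other scalings (bounds of -0.47, -0.55 and -0.52), and the Cyp51 call with the mean or the second of its probe sets, both below the floor. Fdps was called higher (1.53-fold), 1 of the 8, where 7.67% were. Sqle had a log2 ratio of -0.36, Idi1 of -0.23 and Fdft1 of at least 0.03. The median of the 8 was -0.30, and 0.03 for all measured genes. Of all genes called here 39.0% were higher, and 50.1% with quantile normalization. This comparison shares the wild-type array with the one before, and the 3 genes lower here are those higher there. The tissue markers that were high in wild type were lower in hypoxia, with 8 of 9 kidney, 6 of 6 liver, 5 of 6 adrenal and 5 of 7 fat genes called lower, and their part was not tested.

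Against the mean of the transgenic controls, hypoxia had 0 of the 8 called higher, where 12.1% of measured genes were, and 0 called lower, where 4.35% were. Of all genes called, 73.6% were higher, against 45.9% as deposited and 45.5% with the median of all probe sets. The Hmgcs1 log2 ratio was 0.44 by its brightest probe set. By probe set, hypoxia was at 1606, 1247, 1144 and 545, and the lower of the 2 controls at 1177, 1010, 730 and 473. For the dimmest set SM22-rtTA, at 632, was above hypoxia. Idi1 was at 0.25, Fdps at 0.20, Fdft1 at -0.19 or higher and Sqle at -0.30. With the mean of its probe sets, Idi1 was called higher, at 0.67. Hypoxia lay inside the range of the 3 normal-pressure pools for Hmgcs1, Idi1, Fdps and Fdft1. It was below that range for Sqle (352 against 408 to 462). For Lss, Cyp51 and Dhcr7 the values of hypoxia and of both transgenic controls were below the floor, so these 3 could not be called.

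The induced pool was set against BMPR2delx4+ mice not given doxycycline, the question being which genes accompany raised pressure with the mutant receptor. None of the 8 genes was called higher, where 5.08% of measured genes were, and none lower, where 2.58% were. Lss, Cyp51 and Dhcr7 were below the floor in both pools, so these 3 could not be called. Of all genes called, 66.3% were higher, and 51.5% with the median of all probe sets. The brightest Hmgcs1 probe set had a log2 ratio of 0.40 (1555 against 1177). Its other 3 were at 1095 against 1151, 687 against 780 and 395 against 473, so the sign of the Hmgcs1 ratio depends on the probe set. Fdft1 had a log2 ratio of 0.33 and was above all 3 normal-pressure pools. Fdps was at -0.24, Idi1 at -0.14 and Sqle at -0.01, and these 3 were below all 3 normal-pressure pools.

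With SM22-rtTA as the control, which also received doxycycline, Fdft1 was called higher (at least 1.71-fold), 1 of the 8, where 9.80% of measured genes were. Fdps was called lower (1.68-fold), 1 of the 8, where 6.18% were. Both calls were lost with the floor at the 70th percentile, with the mean of probe sets and at 2-fold. Hmgcs1 was at 0.39 on the log2 scale, Idi1 at -0.20 and Sqle at -0.19. With the mean log2 value of their probe sets, Hmgcs1 turned to -0.063 and Idi1 to 0.15. Between the 2 controls themselves, SM22-rtTA over BMPR2delx4+ without doxycycline, Fdps had a log2 ratio of 0.51 and Fdft1 of -0.45 or lower. Neither was called. In that comparison 0 of the 8 were higher, where 3.05% of measured genes were, and 0 lower, where 4.57% were. For both genes SM22-rtTA thus lay on the same side of the uninduced pool as of the induced pool. The comparisons with the 2 controls share the induced array. Lss, Cyp51 and Dhcr7 were below the floor in the induced pool and in both controls, so they could not be called.

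**Figure D4:**
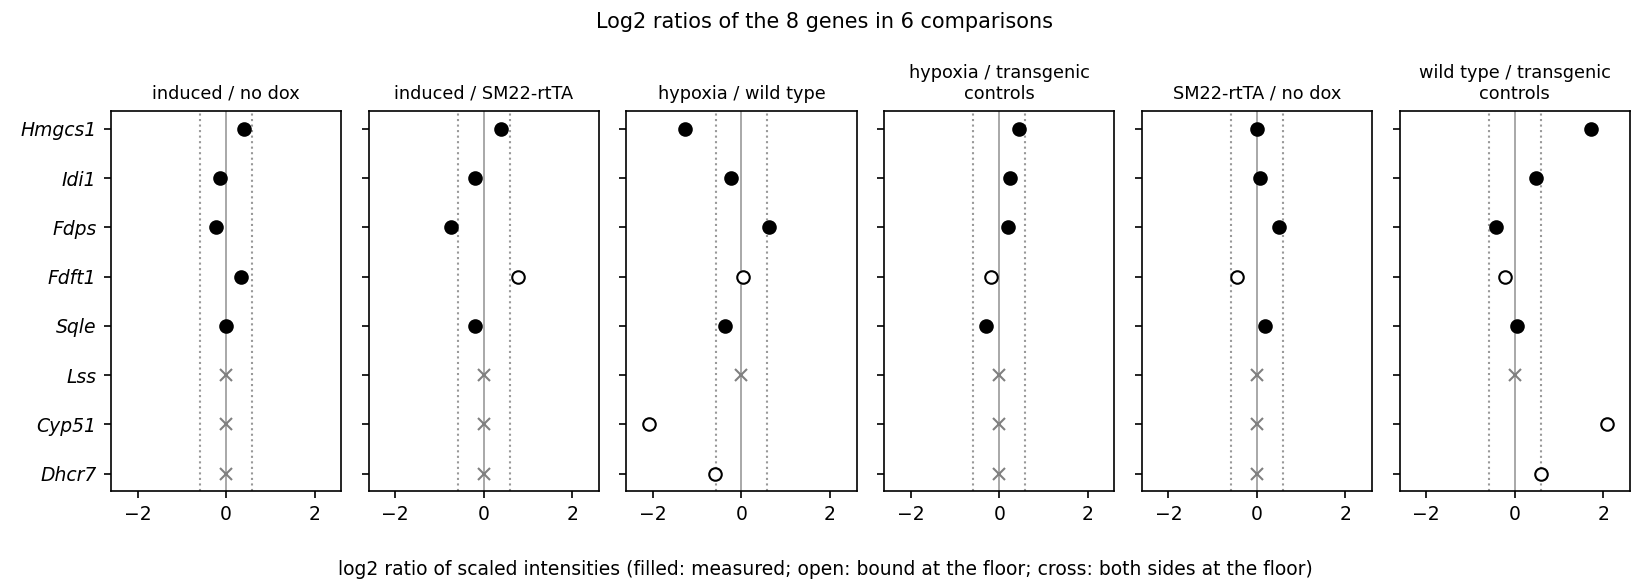
Log2 ratio of scaled intensity (horizontal axis) of the 8 genes (vertical axis, pathway order) in 6 comparisons, with dotted lines at 1.5-fold; filled points are measured on both sides, open points are bounds and crosses mark genes below the floor on both sides. Points past the lines are seen for Hmgcs1, Cyp51 and Dhcr7 where wild type is compared, for Fdps in hypoxia over wild type, and for Fdps and Fdft1 in induction over SM22-rtTA.

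Other enzymes of the pathway were taken from a list of 13, of which 10 were analysed here and 8 were above the floor in a pool. In hypoxia over wild type, 1 of the 8 was called lower, where 12.0% of measured genes were, and 0 higher, where 7.67% were. The 1 called was Ebp, which isomerises the sterol ring, at 769 against 1325, and at 834 to 943 in the transgenic pools. In induction over no doxycycline 0 were called, where 5.08% were higher and 2.58% lower. In hypoxia over the transgenic controls 2 of the 8 were called higher, where 12.1% were, and 0 lower, where 4.35% were. Mevalonate kinase (Mvk) was at 559 against 299 in SM22-rtTA and 392.1 without doxycycline, 1.63-fold above their mean, and the sterol dehydrogenase Nsdhl at 1141 against 726 and 757. Nsdhl was at 1337 in wild type, so both FVB/N pools were above the 3 transgenic ones. In wild type over the transgenic controls Nsdhl was called higher (1.80-fold), 1 of the 8, where 16.9% of measured genes were. The lamin B receptor Lbr, a nuclear membrane protein with sterol reductase activity, was the 1 called lower (1382 against 2299 and 1962), where 10.3% were. These other enzymes thus differed in direction too, with a median log2 ratio of 0.31.

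Of 6 measured regulators of SREBP, 0 were called in induction over no doxycycline, where 5.08% of measured genes were higher and 2.58% lower. In hypoxia 0 were called over wild type (7.67% higher and 12.0% lower) or over the transgenic controls (12.1% and 4.35%). With 6 genes, 0 calls cannot be told from these shares. Srebf2, which encodes SREBP-2, was at 1678 in SM22-rtTA, 1617 in hypoxia, 1178 without doxycycline, 1114 in wild type and 972 in the induced pool. This is the order of Fdps over the 5 pools, though for Fdps only the gap between hypoxia and no doxycycline was above 0.34 (log2). Wild type was not high for Srebf2. Its values are those of the brighter of 2 probe sets, and a link to the 8 genes was not tested. Against SM22-rtTA, Srebf2 was called lower in the induced pool (1.73-fold), 1 of the 6, where 6.18% of measured genes were. Srebf1, which encodes the related SREBP-1, lay between 1287 and 1539.

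Genes of cholesterol uptake and transport gave 3 calls of 7 in hypoxia over wild type, 2 higher and 1 lower, where 7.67% of measured genes were higher and 12.0% lower. Against the transgenic controls, hypoxia gave 0 calls among these 7 and 0 among the 10 efflux genes described next, where 12.1% were higher and 4.35% lower. On the log2 scale Stard4 was there at 0.44, Npc1 at -0.10, Nr1h3 at 0.48 and Lpcat3 at -0.51. Over wild type, the sterol carrier Stard4 was higher (810 against 529, with its other probe set of opposite sign), as was the lysosomal cholesterol exporter Npc1 (626 against 416). The HDL receptor Scarb1 was lower (1258 against 2346) and, in the induced pool, also lower than without doxycycline (912 against 1616). In induction Scarb1 was the 1 of 7 called, where 2.58% of measured genes were lower and 5.08% higher. Among 10 sterol efflux genes and targets of the oxysterol receptor LXR, Nr1h3, which encodes LXR alpha, was called higher in hypoxia (693 against 421) and the phospholipid acyltransferase Lpcat3 lower (502 against 949). The lysosomal lipase Lipa was the 1 of these 10 called after induction, lower at 772 against 1199. Of 6 genes of the isoprenoid branches, Dhdds, a subunit of the enzyme that starts dolichol synthesis, was called lower in hypoxia (296 against 460). It was 1 of the 6, where 12.0% of measured genes were lower, and 0 were called higher, where 7.67% were. Dhdds was also the 1 called lower against the transgenic controls (1.51-fold), where 4.35% were, with 0 higher, where 12.1% were. After induction 0 of the 6 were called, where 2.58% were lower and 5.08% higher.

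Fatty acid synthesis, which draws on the same acetyl-CoA, was the longest of these lists, with 14 measured genes. Called higher in the induced pool than without doxycycline were 4 of its 14 measured genes, where 5.08% of all measured genes were. Against SM22-rtTA 2 of the 14 were called higher, where 9.80% were. Both were among these 4, Fasn (1.53-fold) and Thrsp (5.81-fold), while Me1 was at 0.30 and Acss2 at 0.50 on the log2 scale. Thrsp, a regulator of lipogenesis, was at 2745 against a control below the floor, at least 9.94-fold. Fatty acid synthase (Fasn) was at 3315 against 1752, malic enzyme (Me1) at 1101 against 569 and acetyl-CoA synthetase (Acss2) at 792 against 518. The fat markers of the induced pool were higher too (8545 against 2355 in sum), and their part was not tested. The elongase Elovl1 was the 1 called higher in hypoxia than in wild type (3065 against 1632), where 7.67% were. In hypoxia 4 of the 14 were called lower than in wild type, where 12.0% of measured genes were. They were Me1 (627 against 4168), Acss2 (469 against 2011), Thrsp (619 against 2137) and the desaturase Fads2 (863 against 1479). None of these 4 was called lower in hypoxia against the transgenic controls, and Thrsp was called higher there (at least 1.71-fold). Wild type had the highest value of Me1, Acss2 and Fads2 among the 5 pools, as it had for Hmgcs1, Cyp51 and Dhcr7. The counts of the fatty acid and cholesterol genes were not tested against each other.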

How the data were processed

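Whole mouse lung RNA from 5 pools was measured on 1 array each. The deposited table gives linear intensity values for 22626 probe sets. Its summary method and scaling were not stated by any source available; no deposited value lies under 50. Log2 intensities were shifted by -0.11 to 0.13 to equalise the arrays' medians, taken on 9046 probe sets that passed every array's own 50th percentile. Of all scaled values, the 50th percentile served as noise floor. Symbols came from the platform annotation, updated by gene ID from a RefSeq table (GRCm38.p6); 20380 probe sets had 1 gene. Genes were called at 1.5-fold. Named genes were the 8 members, genes of the pathway lists called in either matched comparison and the 8 genes nearest in profile; Mvk, Nsdhl, Lbr, Srebf1 and Srebf2 were added after their values were seen. The members, lists and rules were chosen with earlier results of these data known. Functions were checked on simulated data. Python 3.11.15, numpy 2.4.6, pandas 2.3.3 and matplotlib 3.10.9 were used. Alternatives covered scaling, floor, pseudocount, fold and probe set choice.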

Additional observations from a re-analysis of the deposited data

How the results depend on the processing

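No paired analysis was possible because each condition has 1 array and the labels give no replicate numbers; no array could be left out of a group for the same reason. Of 432 values of single genes recomputed, 395 moved by less than 0.34 (log2), 37 moved by more and 0 called values changed sign. Part of the 395 was fixed by the method, so this count overstates stability. Ratios below the floor on both sides entered as 0 and stay there while both sides remain below it. Sqle and Dhcr7 have 1 probe set each, so the choice of probe set cannot move them. Uncalled values did change sign. Beside those given above, these were Hmgcs1 (0.40 to -0.028 with the mean and -0.073 with the second probe set) in induction over no doxycycline, and, in SM22-rtTA over no doxycycline, Idi1 (0.07 to -0.24 with the mean) and Hmgcs1 (0.01 to -0.024 with the median of all probe sets and -0.19 with the second probe set). Of 54 medians 45 moved by less than 0.12, and of 60 counts of called genes 50 stayed within 1.5 times. In hypoxia over wild type, the 4 calls became 2 with the floor at the 70th percentile, with the mean of probe sets, with the second probe set and at 2-fold. The median of -0.30 became 0 at that floor, -0.10 with the mean and -0.084 with the second probe set. In wild type over the transgenic controls, the median of 0.27 became 0.13 as deposited, 0 at the 70th percentile, 0.13 with the mean of probe sets and 0.031 with the second probe set. In induction over SM22-rtTA, the 2 calls became 0 at the 70th percentile, with the mean of probe sets and at 2-fold, and 1 with the second probe set. Its median of 0 became -0.20 with the floor at the 30th percentile and -0.15 with a pseudocount of 100. Hypoxia over the transgenic controls went from 0 calls to 1 with the mean of probe sets (Idi1), and SM22-rtTA over no doxycycline from 0 to 1 at the 30th percentile (Dhcr7). Dhcr7 was not called in wild type over the transgenic controls with any of the 3 other scalings. Choosing the scaling probe sets without the wild-type array, an alternative added after the data were seen, gave the same number of calls in each of the 6 comparisons. Where a count dropped, the cause was not tested, beyond the fewer genes that pass a higher floor or fold. Intensities near the floor limit what can be said of Lss, Cyp51, Dhcr7 and Fdft1.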

Other observations

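The following genes were chosen after the values were seen. Among genes above the floor in all pools, those with a profile nearest to Hmgcs1 were Lypla1, Apoa2, Pccb, Car14, Slc25a39, Bphl, Cldn10 and Mpc1, at root mean square differences of 0.055 to 0.16 (log2) over the 5 pools. Lypla1, an acyl-protein thioesterase, was at 2924 in wild type, 1179 in hypoxia, 1149 in the induced pool, 961 in SM22-rtTA and 916 without doxycycline. Apolipoprotein Apoa2, also on the liver list, was at 1205 in wild type and 433 to 575 in the others. Pccb, a subunit of mitochondrial propionyl-CoA carboxylase, was at 2621 against 739 to 1043, and the mitochondrial pyruvate carrier Mpc1 at 3705 against 1257 to 2021. The tight junction gene Cldn10 was at 2340 in wild type, with hypoxia next at 1284. With 5 arrays, many genes higher in wild type share such a profile, and the nearness was not tested.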
